A study of Mus musculus with 10 samples.

Results

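The genes described here are the nuclear-encoded subunits of the mitochondrial respiratory chain and ATP synthase, with the assembly factors of complex I that carry a subunit name. They were chosen by symbol alone, as those that start with Nduf, Uqcr, Cox4i, Cox5, Cox6, Cox7, Cox8 or Atp5, together with Sdha, Sdhb, Sdhc, Sdhd and Cycs. The choice gave 99 symbols, or 98 genes, since 1 gene is Atp5f1 in one table and Atp5pb in the others. Of these symbols, 96 stood among the 22064 genes of the immune cell tables and 93 among the 19333 genes of the oligodendrocyte precursor table, where matching by identifier gave 95 genes a value. Complex I was represented by 38 genes and 9 assembly factors, complex II by 4, complex III by 8, cytochrome c by 1, complex IV by 20 and complex V by 18. The pseudogene Uqcrh-ps2 was left out.

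RNA sequencing covered 10 mouse libraries. Oligodendrocyte precursor cells (OPCs), the progenitors of myelin-forming cells, were purified by immunopanning and kept for 3 days in medium with PDGFAA. 3 libraries came from Olig2-Cre:Apc-fl/fl cultures, in which Cre made in Olig2-expressing cells can remove Apc, and 3 from littermates with floxed Apc and no Cre, called wild type. The authors' deposited table lists Apc itself at a log2 change of -0.14 (SE 0.13, p = 0.287, adjusted p = 1), a value over the whole gene that does not single out the floxed part. The other 4 libraries were sorted from spinal cords 18 days after induction of EAE (experimental autoimmune encephalomyelitis, in which the immune system attacks myelin) in Pdgfra-CreER:Apc-fl/fl animals. The sort for cytotoxic macrophages, by CD11b, Gr-1 and NK1.1, gave 3 libraries, and CD4-positive cells labelled Th1 gave 1. All immune libraries came from mice with the inducible Cre and floxed Apc, so no genotype can be compared among them. The sources used here do not state ages, an induction of Cre or the number of animals behind a library.

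Electrons from NADH enter the chain at complex I and those from succinate at complex II. Both pass through ubiquinone to complex III, then by the mobile carrier cytochrome c to complex IV, which reduces oxygen, and the proton gradient built on the way drives ATP synthase, complex V. Most subunits are encoded in the nucleus and a few, in all complexes but II, in mitochondrial DNA. Neutrophils are known to rely mainly on glycolysis, while OPCs and their progeny need much ATP for growth and myelin formation.

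Several measured facts bear on every result below. The macrophage libraries held 23174908, 23564215 and 23474168 reads by the deposited estimates, and the library labelled Th1 held 3051730. The 10 most abundant genes took 49.3% to 49.6% of the TPM (a level corrected for transcript length, with the same sum in every library) of each macrophage library, led by the neutrophil gene S100a8. The 14 neutrophil markers summed to 43.5% of macrophage TPM and the 12 macrophage and monocyte markers to 3.41%, so these libraries are called macrophage after their label only. In the library labelled Th1, 7 of the 8 T cell markers in the table had at most 3 reads, Cd3e and Cd4 none. The other, Lck, went the other way, with 422 reads and 66.3 TPM against a mean of 0.163 TPM in the macrophage libraries. Neutrophil markers summed to 25190 TPM in the library labelled Th1, against 434053 to 437137 in the macrophage libraries. Macrophage and monocyte markers summed to 12004 against 33799 to 34377. Of these, Cd14, Adgre1 and Fcgr1 had 734.14, 81.6 and 167.47 TPM there, above macrophage means of 59.9, 7.63 and 25.2. The rest of that list lay lower there in TPM. In the authors' deposited table of the OPC comparison, the means of the 8 neuronal markers ran from 8117 normalized counts (Snap25) to 122255 (Tubb3). Those of the 7 precursor markers ran from 1046 (Cspg4) to 13051 (Ptprz1) there, not corrected for length. Of the 7, 5 lay above 0 and 2 below in the authors' deposited table. Gpr17 alone of them passed the adjusted test, at a log2 change of -1.16 (adjusted p = 2.14e-10). The 8 neuronal markers all lay below 0 in that comparison in the authors' deposited table, none past 0.05 before adjustment. Lyz2 and Cd68, markers of macrophages, rose in the authors' deposited table by 4.33 (adjusted p = 0.00243) and 1.54 (adjusted p = 0.00729) on the log2 scale. All 8 genes of mitosis and replication lay above 0 and all 6 erythroid genes below 0 in the authors' deposited table, none past the adjusted test. The part that such other cells have in the values given here was not tested. In bulk RNA, fewer cells of a type and less RNA per cell cannot be told apart.

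In the macrophage libraries the median member with reads ranked above 97.2% of genes with reads, and by median TPM complex IV was highest and complex II lowest. All members together took 3.22%, 3.22% and 3.24% of the TPM of libraries 1 to 3, numbered in file order. Outside the 10 most abundant genes of each library they took 6.37%, 6.39% and 6.39%. Of the 96 symbols, 93 had reads, 90 a mean of at least 1 TPM and 57 a mean of at least 100 TPM. The median member lay at 351 TPM for complex IV, 316 for complex V, 286 for complex III, 152 for complex I and 35.5 for complex II. In CPM, reads scaled to a common total without regard to length, complex V with a median of 377 lay above complex IV with 319. Cytochrome c, the single gene Cycs, had 85.87, 86.74 and 86.78 TPM in the 3 libraries. The 8 complex I assembly factors named Ndufaf had a median of 5.19 TPM.

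**Figure D1:**
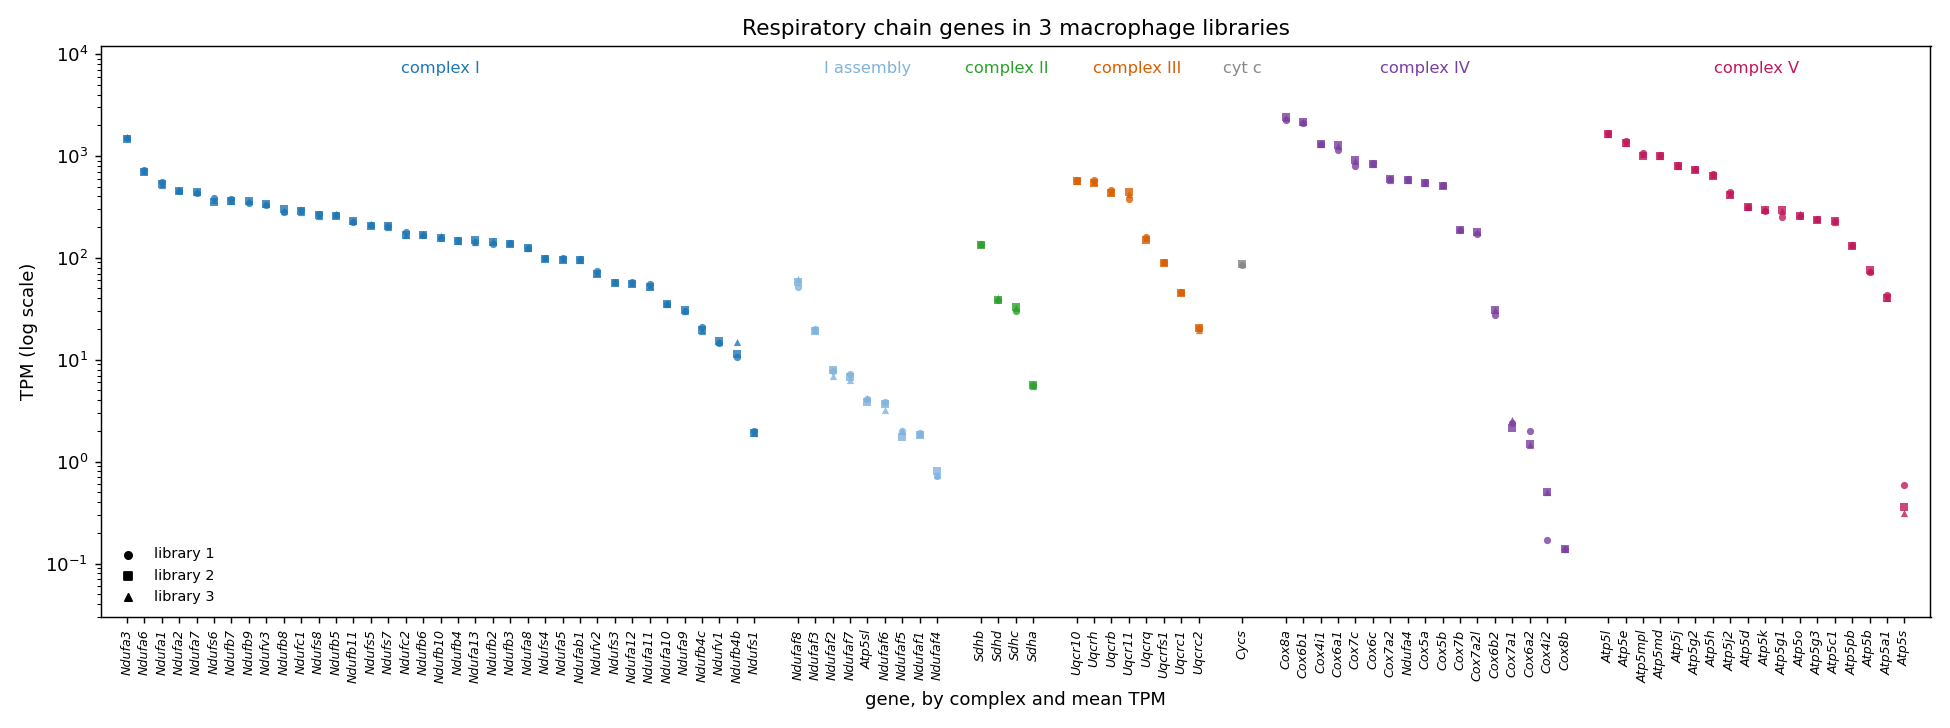
TPM on a log scale of the respiratory chain genes with reads in the 3 macrophage libraries, 1 marker per library, grouped by complex and sorted by mean. The 3 libraries nearly overlap for most genes, and complex IV holds both the highest gene, Cox8a with 2334 TPM, and isoforms under 1 TPM. Cox7b2, Cox8c and Ndufa4l2 had no reads and are not drawn.

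The 3 macrophage libraries were close to each other. Among the 57 members of at least 100 TPM, the median coefficient of variation was 1.88%, against 1.86% for the 516 genes of that range. It exceeded 5% for 4 of these members, or 7.02% against 4.84% of genes in the range. These were Uqcr11 at 8.89%, Atp5g1 at 8.18%, Cox7c at 6.52% and Cox6a1 at 6.18%, and all 4 were lowest in library 1. Uqcr11, a small subunit of complex III, had 374.28, 445.4 and 427.22 TPM. Across the 57 members, library 1 was the lowest of the 3 for 19 and the highest for 28. No label says that the libraries came from separate animals, so their spread may be technical.

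Within complex I, the 7 core subunits, which carry the flavin and the iron-sulfur clusters that pass electrons to ubiquinone, had lower levels than the 31 accessory subunits. Their medians were 57.3 and 168 TPM. The highest complex I gene was Ndufa3, an accessory subunit, with 1501.31, 1467.16 and 1533.06 TPM, followed by Ndufa6 with 733.28, 695.84 and 706.84 TPM. The lowest was the core subunit Ndufs1, the largest subunit of the complex, with 2, 1.9 and 1.91 TPM. Ndufv1, the subunit that binds NADH, reached 14.71, 15.32 and 15.05 TPM, and its partner Ndufv2 reached 74.57, 69.58 and 71 TPM. Ndufs8, a core iron-sulfur subunit, had 268.54, 263.41 and 258.16 TPM and was the highest core gene. Ndufb4b and Ndufb4c, near copies of Ndufb4, were listed at 12.3 ± 2.35 and 20 ± 0.935 TPM (SD, n = 3). Reads shared with Ndufb4 at 146 ± 1.66 TPM could not be separated, and their split is uncertain. TPM moved with transcript length, by which TPM is itself divided, so part of the relation can come from the measure. Across 93 members, TPM and transcript length had a Spearman correlation of -0.56, against -0.40 across 12392 genes, as a description of genes that share libraries.

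The assembly factors of complex I, which build the complex and are not part of it, were low. Ndufaf8 was the highest at 57 ± 5.26 TPM and Ndufaf4 the lowest at 0.753 ± 0.0416 TPM (SD, n = 3). Ndufaf6 had 3.86, 3.65 and 3.22 TPM. Atp5sl, an assembly factor with a complex V name, was listed in the immune tables under another name at 4.09 ± 0.172 TPM and stays outside the counts there.

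The 4 genes of complex II, succinate dehydrogenase, differed strongly from each other. Sdhb (chr4:140961203-140979193, GENCODE M21 on GRCm38, as are the gene positions below), the iron-sulfur subunit, had 136.69, 132.56 and 135.43 TPM. Sdha (chr13:74322254-74350280), the flavoprotein that oxidises succinate and pairs with Sdhb in the same enzyme, had 5.65, 5.67 and 5.58 TPM, so that Sdhb lay 24.2, 23.4 and 24.3 times above it. The membrane anchors Sdhc and Sdhd reached 31.6 ± 1.69 and 39.5 ± 0.955 TPM (SD, n = 3). The ranges of the 4 genes over the libraries did not overlap.

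Complex III ran from Uqcr10, a small accessory subunit with 573.8, 571.2 and 573.3 TPM, to Uqcrc2, one of the pair of large core proteins, with 20.34, 20.33 and 19.69 TPM. Uqcrh, the hinge protein next to cytochrome c1, had 574.48, 547.17 and 552.53 TPM and overlapped with Uqcr10. Uqcrc1, the other large core protein, had 46.1 ± 0.924 TPM, and Uqcrfs1, the Rieske iron-sulfur protein, 90.1 ± 1.31 TPM (SD, n = 3). Cyc1, which encodes cytochrome c1 and falls outside the symbol rule, had 44.6 ± 0.251 TPM.

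Complex IV, cytochrome c oxidase, has nuclear subunits that come in a common and a tissue-restricted form, and the macrophage libraries held almost only the common ones. The 11 common subunits had a median of 838 TPM and all exceeded 100 TPM, while the 8 restricted ones had a median of 0.265 TPM. Cox8a, a small subunit found in most tissues, had 2245.44, 2383.84 and 2371.31 TPM, the highest level of any member. Its partner Cox8b, known from heart and skeletal muscle, had 1 read in each library, a TPM ratio of 16668 (95% counting interval 5704 to 80825 from its 3 reads). Cox6b1 had 2099.15, 2138.66 and 2152.86 TPM, and Cox6b2, known from testis, 27.32, 30.6 and 30.85 TPM. That made Cox6b2 the highest restricted form, with a mean ratio of 72 for the pair. Cox4i1 had 1299.05, 1316.56 and 1299.93 TPM, and Cox4i2, known from lung, 0.17, 0.5 and 0.5 TPM from 4, 12 and 12 reads. Cox6a1 exceeded the heart and muscle form Cox6a2 by a mean of 747 times, and Cox7a2 exceeded Cox7a1, another heart and muscle form, by a mean of 248 times. Cox7b had 189 ± 0.868 TPM (SD, n = 3) beside a Cox7b2 without reads. Ndufa4, first assigned to complex I by its name and now counted with complex IV, had 585 ± 5.48 TPM, and its relative Ndufa4l2, a gene induced by low oxygen, had no reads. Cox7a2l, a relative of Cox7a2 that helps join complexes III and IV into supercomplexes, had 177 ± 3.4 TPM.

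The promoters of one common and restricted pair, Cox8a and Cox8b, and of Cox6a1 are shown because these genes span the range of levels within the complex. Each line gives the 250 bases before the start of the RefSeq transcript, on the strand of the gene, from RefSeq on GRCm38.p6. Capitals mark the letters GCGCA and GCGC with any 1 base between them, a motif of the factor NRF1, and CCGGAAG or its complement CTTCCGG, a motif of GABP and other ETS factors, both known regulators of respiratory chain genes. The third motif searched, AAGATGGC of the factor YY1, was not found in these 3 windows. Cox6a1 is read from chr5:115348959-115349208, minus strand, Cox8a from chr19:7217617-7217866, minus strand, and Cox8b from chr7:140900447-140900696, minus strand.
Cox6a1: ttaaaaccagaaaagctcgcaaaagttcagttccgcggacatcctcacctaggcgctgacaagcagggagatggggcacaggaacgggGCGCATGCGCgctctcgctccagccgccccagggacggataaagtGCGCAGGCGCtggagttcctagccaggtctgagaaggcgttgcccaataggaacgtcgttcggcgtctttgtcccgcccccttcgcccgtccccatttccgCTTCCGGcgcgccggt
Cox8a: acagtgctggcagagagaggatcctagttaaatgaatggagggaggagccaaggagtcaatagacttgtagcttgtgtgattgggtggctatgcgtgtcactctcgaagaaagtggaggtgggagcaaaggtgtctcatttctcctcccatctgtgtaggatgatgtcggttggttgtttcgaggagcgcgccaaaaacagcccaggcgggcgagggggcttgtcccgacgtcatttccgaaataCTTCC
Cox8b: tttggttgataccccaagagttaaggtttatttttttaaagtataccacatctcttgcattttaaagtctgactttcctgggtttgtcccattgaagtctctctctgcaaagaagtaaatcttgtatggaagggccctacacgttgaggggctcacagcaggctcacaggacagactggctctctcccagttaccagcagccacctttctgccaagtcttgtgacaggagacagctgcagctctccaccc

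Cox6a1 held the NRF1 letters 162 and 117 bases before the start and the ETS letters 16 bases before it. In Cox8a the ETS letters began 5 bases before the start, so the print cuts them at its end, and a second match lay 33 bases after the start. Cox8b held none of the 3 motifs. Windows of 250 bases before to 50 bases after the start were at hand for 80 member genes, with 86 windows, and for 32851 windows in all. Searched on both strands, the NRF1 letters stood in 23.3% of member windows against 4.6% of all windows, the ETS letters in 22.1% against 8.86%, and the YY1 letters in 15.1% against 2.75%. At least 1 of the 3 stood in 52.3% of member windows against 14.7%. The members' windows had a median GC content of 58.5% against 52.7%. Among windows in the middle range of the members' GC content, 54.3% of 46 member windows held a motif against 22% of 7362. By gene, a motif stood near 53.8% of the 80 members, against 16.4% of 27025 genes. It stood near 14 of 28 accessory and 3 of 5 core subunits of complex I and 5 of 8 of its assembly factors. For complex II it was 3 of 3, and for complex III 3 of 4 accessory subunits and 0 of 1 core. In complex V it was 8 of 9 stalk or membrane subunits, 2 of 4 of F1 and 2 of 3 of the c ring. In complex IV it was 3 of 9 common subunits, 0 of 4 restricted ones and 0 of 1 supercomplex factor, and for Cycs 0 of 1. A match describes letters and not a bound site.

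Complex V members lay at a median of 316 TPM. Its catalytic head, F1, ran from the small epsilon subunit Atp5e, at 1412.1, 1331.07 and 1348.7 TPM, down to the alpha subunit Atp5a1, at 42.73, 40.09 and 40.74 TPM. The beta subunit Atp5b, which holds the catalytic sites with Atp5a1, had 72.9, 75.47 and 73.4 TPM. The stalk and membrane subunits were higher, with a median of 646 TPM against 227 TPM for F1, and were led by Atp5l (subunit g) with 1685.92, 1657.79 and 1652.75 TPM. The rotor ring of subunit c is encoded by 3 genes that give the same mature protein. Of these, Atp5g2 (chr15:102662864-102672352) had 751.28, 723.38 and 747.63 TPM, Atp5g1 253.72, 296.28 and 289.58 TPM, and Atp5g3 (chr2:73908447-73911326) 238.72, 236.9 and 241.57 TPM. Atp5g2 thus lay 3.1 times above Atp5g3 on average, and Atp5g1 lay above Atp5g3 in each library. Atp5s, a coupling factor listed under another name, was low at 0.42 ± 0.149 TPM (SD, n = 3).

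The OPC libraries can be read only through 1 mean per gene over both genotypes. In the authors' deposited table, set per kilobase of transcript, the highest members were Atp5k at 38832, Uqcrh at 29742, Cox6c at 26135, Ndufa2 at 20382 and Ndufa5 at 19372 normalized counts per kilobase. In the authors' deposited table the common forms of complex IV again exceeded the restricted ones per kilobase, by 385 times for Cox8a over Cox8b, 287 for Cox4i1 over Cox4i2, 107 for Cox6a1 over Cox6a2, 69.4 for Cox7a2 over Cox7a1 and 28.6 for Cox6b1 over Cox6b2. Sdhb exceeded Sdha by 4.89 times per kilobase in the authors' deposited table, against a mean of 23.9 times in macrophage TPM. The c ring genes stood in another order: in the authors' deposited table Atp5g3 had 14020 normalized counts per kilobase, Atp5g1 186 and Atp5g2 68.9. The core subunit Ndufs3 (chr2:90894634-90904827), at 57.3 ± 0.621 TPM (SD, n = 3) in the macrophage libraries, had a mean of 13.8 normalized counts in the authors' deposited table, or 13.2 per kilobase. Across 93 members, the per-kilobase mean in the authors' deposited table and macrophage TPM had a Spearman correlation of 0.59, against 0.37 across 12392 genes. It was 0.44 across the 79 members left without restricted isoforms and assembly factors. Both measures are divided by transcript length, which can by itself raise these correlations.

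**Figure D2:**
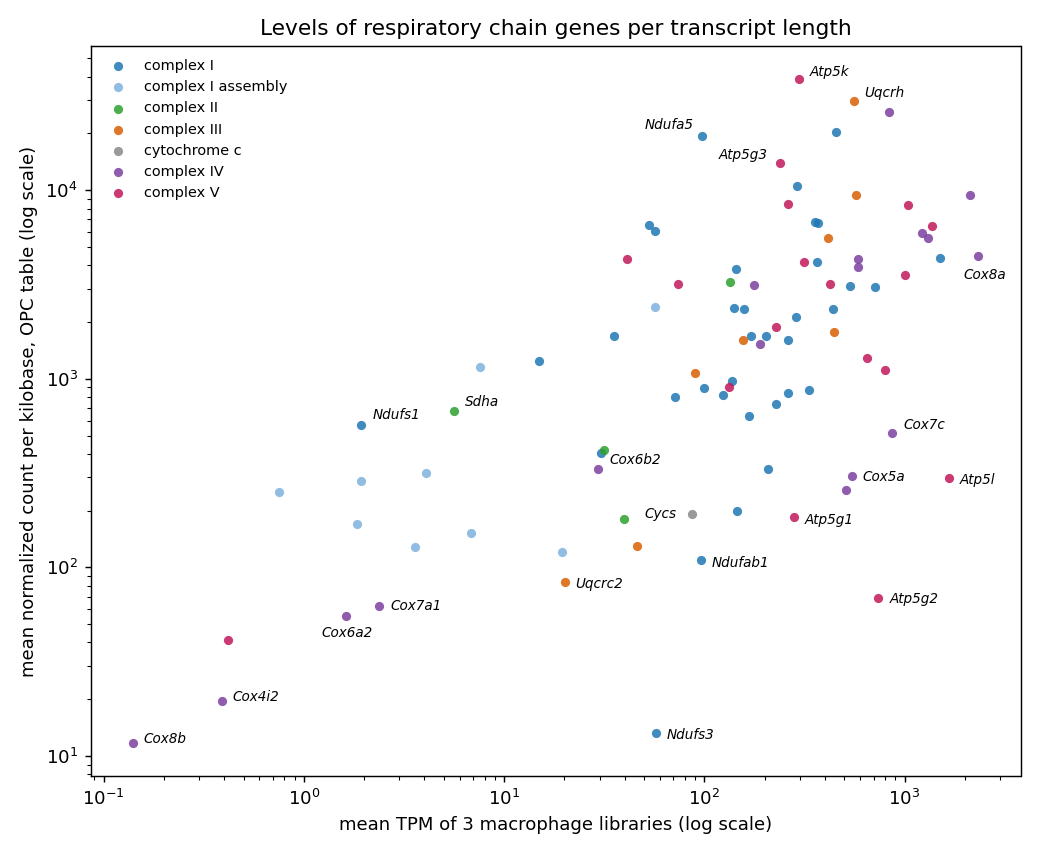
Mean normalized count per kilobase of transcript in the authors' deposited OPC table against mean TPM of the 3 macrophage libraries, both on log scales, 1 point per gene. Genes high in one are mostly high in the other, while Ndufs3, Atp5g2 and Atp5l lie low in the OPC table for their macrophage level, and Atp5g3, Ndufa5 and Atp5k lie high.

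Many members have near copies elsewhere in the genome. Of the 95 members in the authors' deposited table, 22, or 23.2%, had a coding sequence that matched another annotated transcript with at least 95% identity over at least 80% of its length. Of all genes there with a coding sequence, 6.19% did. Those with a copy had a median mean of 774 normalized counts in the authors' deposited table and those without a copy 1520. The ranges, 13.8 to 14407 and 3.21 to 16951 in the authors' deposited table, overlapped. Over all genes with a coding sequence the medians there were 205 with a copy and 274 without. Ndufs3, Atp5g2, Atp5l and Ndufab1, picked here after their values were seen, each had at least 1 copy, and so did Atp5k, the highest member. Gapdh, with 69 copies, had a mean of 29.7 normalized counts in the authors' deposited table and 1646 ± 44.4 TPM (SD, n = 3) in the macrophage libraries. Actb, with 0 copies, had 141296 normalized counts in the authors' deposited table. No source used here says how reads with several matches were counted, and levels of genes with a copy are uncertain for that reason.

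Deletion of Apc, whose protein keeps beta-catenin and so Wnt signalling low, was compared with wild type to ask which OPC transcripts change. No respiratory chain gene passed the test, and the authors' deposited table had 0 of 95 members under 0.05 by adjusted p, where 0.548% of all genes were. At an unadjusted p under 0.05 it was again 0 of 95, against 3.63% of all genes in the authors' deposited table. No source used here names the tool behind that table. Its numerator is not named either, and signs are given as Apc-deleted over wild type because the Wnt feedback targets Notum, Sp5, Lef1 and Axin2 are then higher. On that reading 46 members of the authors' deposited table lay above 0 and 49 below, and the median log2 fold change was -0.00. The median size of the log2 fold change, in either direction, was 0.06 for the members and 0.14 for all genes in the authors' deposited table. For the 86 members with a mean of at least 100 normalized counts it was 0.06, against 0.09 for the 9667 genes in the same range of means, in the authors' deposited table.

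Precision differed with the level of a gene. A 95% interval, taken as the normal interval from the deposited standard error, lay within 0.5 log2 units of 0 for 68 of the 95 members of the authors' deposited table. For the 86 members with a mean of at least 100 normalized counts in the authors' deposited table, 79.1% had such an interval, against 76.2% of the 9667 genes in the same range of means. All 86 had intervals within 1 log2 unit of 0 in the authors' deposited table, so changes beyond 2-fold lie outside the interval of each. By complex, the interval lay within 0.5 for 29 of 36 members of complex I, 8 of 9 assembly factors, 3 of 4 of complex II, 5 of 8 of complex III, 9 of 19 of complex IV and 13 of 18 of complex V in the authors' deposited table. The widest intervals belonged to the restricted isoforms, whose median mean was 14.2 normalized counts in the authors' deposited table.

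**Figure D3:**
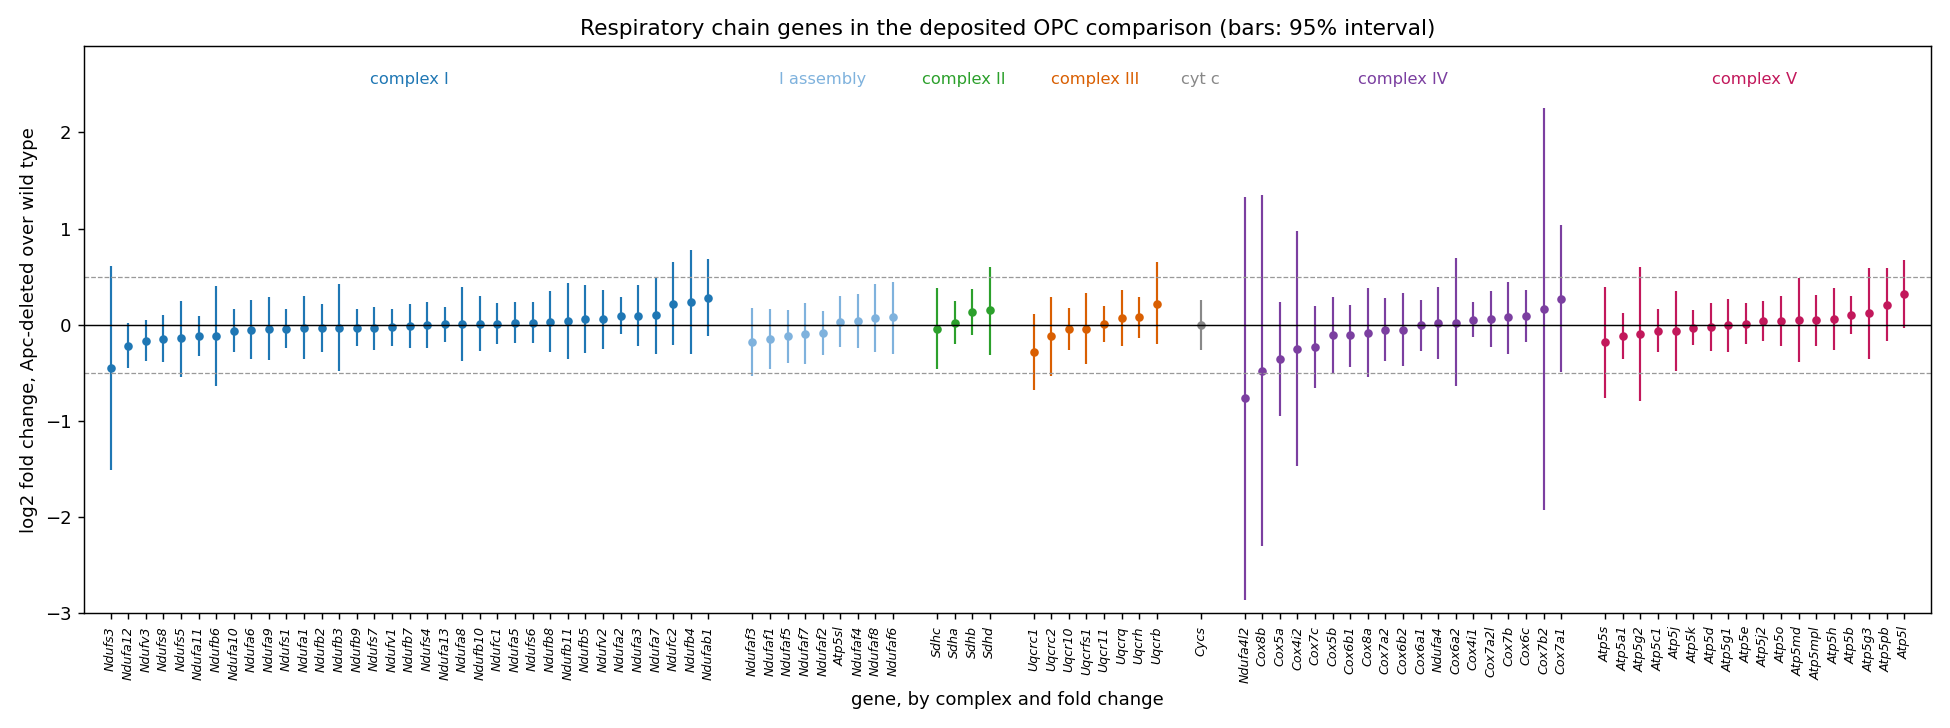
Log2 fold change of the respiratory chain genes in the authors' deposited OPC table, Apc-deleted over wild type, with its 95% interval, grouped by complex and sorted by value. The dashed lines mark 0.5 log2 units on each side of 0. Every interval drawn includes 0, and the long bars are genes with low means, such as Ndufa4l2 and Cox7b2.

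The members with the smallest p-values are given with their values, none of which passed the test. In complex I the authors' deposited table listed Ndufa12, an accessory subunit, at -0.22 (SE 0.12, unadjusted p = 0.0687), Ndufv3 at -0.17 (SE 0.11, p = 0.132) and Ndufab1, the acyl carrier protein, at 0.28 (SE 0.21, p = 0.177). Complex II had Sdhb at 0.13 (SE 0.12, p = 0.278), Sdhd at 0.15 (SE 0.23, p = 0.525) and Sdha at 0.02 (SE 0.12, p = 0.844) in the authors' deposited table, with Sdhc at -0.04 (SE 0.22, p = 0.847). For complex III the authors' deposited table gave Uqcrc1 at -0.28 (SE 0.20, p = 0.158), Uqcrb at 0.22 (SE 0.22, p = 0.303) and Uqcrh at 0.08 (SE 0.11, p = 0.471). Complex IV was led by Cox5a at -0.35 (SE 0.30, p = 0.241), Cox7c at -0.23 (SE 0.22, p = 0.294) and Ndufa4l2 at -0.76 (SE 1.07, p = 0.475, mean 3.21 normalized counts) in the authors' deposited table. In complex V the authors' deposited table had Atp5l at 0.32 (SE 0.18, p = 0.0764), Atp5pb at 0.21 (SE 0.19, p = 0.286) and Atp5a1 at -0.12 (SE 0.12, p = 0.331). Cycs stood at -0.00 (SE 0.13, p = 0.997) in the authors' deposited table. By adjusted p, all 95 members stood at 1 in the authors' deposited table.

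Each isoform in the pairs of complex IV had a log2 fold change smaller in size than its own standard error. The interval taken from that error lay within 1 log2 unit of 0 for only 2 of the 7 restricted forms in the authors' deposited table. For the other restricted forms a larger change in either direction was not excluded. The authors' deposited table put the log2 fold change of Cox4i1 at 0.05 (SE 0.09) and that of Cox4i2 at -0.25 (SE 0.63). For Cox6a1 and Cox6a2 the authors' deposited table gave -0.00 (SE 0.13) and 0.02 (SE 0.34), for Cox6b1 and Cox6b2 -0.11 (SE 0.16) and -0.05 (SE 0.20), and for Cox8a and Cox8b -0.08 (SE 0.23) and -0.48 (SE 0.93). Cox7a2, Cox7a1 and Cox7a2l stood at -0.05 (SE 0.17), 0.27 (SE 0.39) and 0.06 (SE 0.15) in the authors' deposited table. Cox7b and Cox7b2 stood at 0.08 (SE 0.19) and 0.17 (SE 1.06), and Ndufa4 at 0.02 (SE 0.19), in the authors' deposited table. The authors' deposited table gives 1 value per gene for the comparison, so the difference within a pair could not be tested.

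Subunits encoded in mitochondrial DNA, which are joined to the nuclear ones in the same complexes, were listed for 8 of 13 genes in the authors' deposited table, and 0 passed the adjusted test. Of these 8, 2 lay above 0 and 6 below, and the authors' deposited table put their median log2 fold change at -0.15. An unadjusted p under 0.05 was listed in the authors' deposited table for mt-Nd2, at -0.18 (SE 0.09, p = 0.0433, adjusted p = 1), and for mt-Nd3, at -2.75 (SE 0.92, p = 0.00276, adjusted p = 0.284). The mt-Nd3 mean was 14.6 normalized counts in the authors' deposited table, against 35805 for mt-Nd2 and 54148 for mt-Nd4. The other pathway lists had 0 members past the adjusted test in the authors' deposited table as well. They hold 35 assembly factors outside the symbol rule, 16 regulators of mitochondrial gene expression and 18 genes of the TCA cycle that the authors' deposited table lists. The others listed there are 6 genes of cytochrome c1 and reductants of ubiquinone, 12 carriers, porins and uncoupling proteins, 10 antioxidant genes and 17 genes of glycolysis. At an unadjusted p under 0.05 each of these lists had 0 or 1 member, Polg (p = 0.0234) among the regulators and Pfkfb3 (p = 0.0372) in glycolysis, in the authors' deposited table. Tfam, the packaging factor of mitochondrial DNA, stood at -0.01 (SE 0.12) and Ppargc1a, the coactivator of mitochondrial gene expression, at -0.17 (SE 0.13) in the authors' deposited table.

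The last comparison set the single library labelled Th1 against the 3 macrophage libraries. In the library labelled Th1 complex II had almost no reads, as had many subunits of complexes I and III. Most common subunits of complex IV and most genes of complex V had at least 100 in that library. Members together took 5.34% of its TPM against 3.22% to 3.24% in the macrophage libraries, and 6.26% against 6.37% to 6.39% outside the 10 most abundant genes of each library. Of the 96 symbols, 20 had no read in the library labelled Th1, 17 had 1 to 3, 14 had 4 to 99 and 45 had at least 100. A floor of 3 reads stands for 0.983 CPM there and for 0.127 to 0.129 in a macrophage library. Sparse counts were a property of that whole library: it listed 6550 genes with a value against 14527 in each macrophage library. Among genes for which the macrophage share of reads predicts at least 100 reads, 48.8% of 2391 had at most 3, against 28.6% of the 77 such members.

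**Figure D4:**
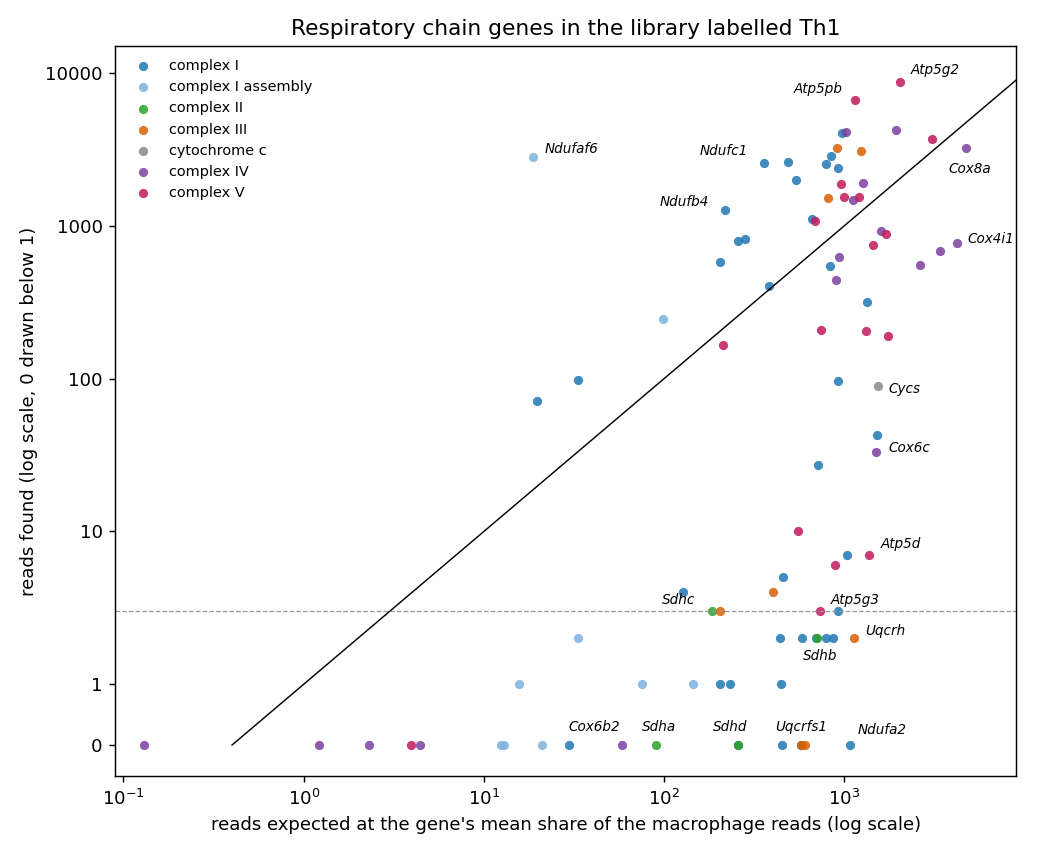
Reads found in the library labelled Th1 against the reads expected from each gene's mean share of the macrophage reads, both on log scales, with 0 drawn below 1. The solid line marks equality and the dashed line 3 reads. All 4 complex II genes lie at or under 3 reads, and the other points spread over nearly the full height where the most reads are expected.

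In edgeR's quasi-likelihood test over 11447 genes, with TMM scaling and the single library assumed to vary as the macrophage libraries do, 92 members passed the filter on low counts. With both an adjusted p under 0.05 and a difference of at least 4-fold, 27 were higher in the library labelled Th1, or 29.3%, where 13.7% of all genes were. The test called 41 lower, or 44.6%, where 54.6% of all genes were. The scaling moved this split. With DESeq2 size factors 39 were higher and 35 lower (17.6% and 30.1% of all genes), and with library totals 8 were higher and 50 lower (9.59% and 71.3%). The median log2 difference of all genes was -5.61 with TMM, -4.32 with DESeq2 size factors and -6.25 with library totals, and that of the members was -1.45, 0.07 and -2.94. The sign itself differed between scalings for 15 of the 92.

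Under all 3 scalings 8 members were called higher, or 8.7%, where 9.59% of all genes were. The count of members lower under all 3 was 35, or 38%, where 30.1% of all genes were. Of these 35, 11 had no read in the library labelled Th1, and the fitted difference of such genes depends on a prior count and hardly moves with the scaling. Held to the bound that a floor of 3 reads allows, as chosen after seeing the data, 4 of the 11 fell short of 4-fold under at least 1 scaling, and 31 members, or 33.7%, remained lower, where 16.5% of all genes did. Such bounds need depth, and members are abundant. With at least 100 expected reads, 39% of 77 members were lower under all 3 scalings, against 56.2% of 2391 genes. T cell markers other than Lck near 0 in this library, its own myeloid markers, the neutrophil markers of the macrophage libraries and the sparse counts all move with this comparison. Their part in it was not tested.

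The 8 members called higher under all 3 scalings were Ndufb4, Ndufb5, Ndufc1 and Ndufc2 of complex I, the assembly factor Ndufaf6, Ndufa4 of complex IV, and Atp5g2 and Atp5pb of complex V. Ndufaf6 (chr4:11051045-11076205) had the largest fold: its 2818 reads in the library labelled Th1 stood against 155, 150 and 129 in the far deeper macrophage libraries, a 422-fold difference (log2 8.72 with TMM, 10.23 with DESeq2 size factors and 7.22 with library totals). It had 998.21 TPM, against 3.58 ± 0.326 (SD, n = 3), while the other Ndufaf genes but Ndufaf8 had at most 1 read. Ndufc1, an accessory subunit, had 2923.12 TPM against 292.09, 290.66 and 282.28, a 20.3-fold difference. Ndufb4 had 1252.77 TPM against 148.12, 144.81 and 146.39, or 16.5-fold, with reads it may share with its copies. Atp5g2 was the member with the most reads, 8768, and had 5228.75 TPM against 751.28, 723.38 and 747.63, or 12.1-fold. Atp5pb, subunit b of the peripheral stalk, had 1352.89 TPM against 134.24, 131.77 and 133.08, or 16.3-fold. Ndufa4 had 3538.99 TPM against 589.97, 579.07 and 585.47, or 11.3-fold. Folds in this comparison are of reads with TMM scaling unless another is named and so differ from ratios of TPM. In each of these genes the single library lay above all 3 macrophage libraries.

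Complex II had 0 to 3 reads for each of its 4 genes, and 3 of them were lower under all 3 scalings with genes without a read held to their bound. Those 3 had at least 100 expected reads, and of all genes with that many 56.2% were lower under all 3 scalings. At most 3 reads were found for 48.8% of all such genes. Sdha and Sdhd had no read in the library labelled Th1, where their macrophage share predicts 90.2 and 256 reads. With the floor of 3 reads in that library they were at least 3.73-fold and at least 10.6-fold lower, the smallest bound over the 3 scalings, so that Sdha fell short of 4-fold. Sdhb had 2 reads against 5449, 5389 and 5465, a ratio of 126 (95% counting interval 34.8 to 1038). Sdhc had 3 reads against 1322, 1504 and 1430, a ratio of 21.9 (95% counting interval 7.48 to 106). Together the 4 genes had 1.59 TPM against 210 to 213 in the macrophage libraries. Such intervals and floors cover counting error only.

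Within complex I, 14 of 38 genes had at most 3 reads and 16 had at least 100. Of its 35 genes with at least 100 expected reads, 13 had at most 3, against 48.8% of all such genes. Among core subunits, Ndufs1, Ndufs3 and Ndufv2 had no read, Ndufv1 had 4 and Ndufs8 had 2397. Ndufv2 was at least 23.8-fold lower, while Ndufs8 was 7.33-fold higher with TMM scaling, so core subunits of the same complex lay on opposite sides. Among accessory subunits, Ndufa2 had no read against 8216, 8260 and 8369, at least 44.6-fold lower, and Ndufa1 had 3 reads, a ratio of 109 (95% counting interval 37.2 to 527). Ndufa7 had 2844 reads, 9.48-fold higher with TMM scaling, and Ndufaf8 was 7.06-fold higher with TMM scaling. Library totals kept the sign but not the call of Ndufs8, Ndufa7 and Ndufaf8, at log2 1.38, 1.75 and 1.32. Ndufs1, Ndufaf2 and Ndufaf1 had no read where 29.5, 21.1 and 13 were expected, too few for a bound of 4-fold.

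In complex III, 5 of 8 genes, or 62.5%, were called lower under all 3 scalings, bounds included, and 0 higher. All 8 had at least 100 expected reads, and of all genes with that many 56.2% were lower and 12.2% higher. Uqcrfs1, the Rieske protein, had no read against 4577, 4578 and 4673, at least 24.8-fold lower, and Uqcr11 had none against 3945, 4711 and 4507, at least 23.6-fold lower. Uqcrh had 2 reads, a ratio of 202 (95% counting interval 55.8 to 1664). Uqcrb had 2453.04 TPM against 446 ± 12.8 (SD, n = 3) and Uqcrq 695.62 TPM against 156 ± 6.07, 9.97-fold and 6.99-fold higher with TMM scaling, and neither call held with library totals. Cycs had 90 reads, 6.06-fold lower with TMM scaling, a call that DESeq2 size factors did not keep.

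The common subunits of complex IV all had reads in the library labelled Th1, with 10 of 11 at 100 or more, and the 8 restricted forms had none. All 11 common forms had at least 100 expected reads, and 0 had at most 3, against 48.8% of all such genes. Of the restricted forms 0 had that many expected reads, so the contrast moves with macrophage level. Cox6c, with 33 reads, was 16-fold lower with TMM scaling and was called lower under all 3 scalings. Cox7a2 was 6.15-fold higher with TMM scaling, a call lost with library totals. Cox4i1, Cox6a1 and Cox6b1 were 1.94-fold, 1.7-fold and 1.76-fold lower with TMM scaling and not called, and with DESeq2 size factors their sign turned. Cox8a, Cox7b and Cox7a2l were 1.92-fold, 1.37-fold and 1.89-fold higher with TMM scaling, and with library totals their sign turned. Cox6b2 had no read against 411, 462 and 475, at least 2.42-fold lower. Cox4i2, Cox6a2, Cox7a1 and Cox8b had fewer than 5 expected reads, so a difference was not detectable at this depth.

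In complex V, 13 of 17 genes had at least 100 reads. All 17 had at least 100 expected reads, and 1 had at most 3 reads, against 48.8% of all such genes. The c ring genes lay apart: Atp5g2 had 8768 reads and Atp5g1 1543, while Atp5g3 had 3 against 5562, 5604 and 5680, a ratio of 86.5 (95% counting interval 29.6 to 420). Atp5d, the delta subunit of F1, had 7 reads and was 69.7-fold lower with TMM scaling. Atp5o, which ties the peripheral stalk to F1, had 6 reads and was 52.4-fold lower, while Atp5pb of the same stalk was 16.3-fold higher. Atp5a1 had 10 reads and was 19.6-fold lower. Atp5d, Atp5o, Atp5a1 and Atp5g3 were called lower under all 3 scalings, or 23.5% of the 17. Of all genes with at least 100 expected reads 56.2% were.

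Transcript length moved with these counts. Among members with at least 100 expected reads, those with at most 3 reads in the library labelled Th1 had a median transcript of 977 bases, those with 4 to 99 reads 884.5 bases and those with at least 100 reads 659 bases. Their ranges overlapped, from 419 to 3171 bases in the first set and from 351 to 4715 in the last. Level moved too: the 3 sets had medians of 574, 906 and 955 expected reads and of 130, 214 and 370 macrophage TPM. The part of length and level in these counts was not tested. The other lists had genes near 0 as well. Of their genes with at least 100 expected reads, at most 3 were found for 7 of 10 assembly factors outside the rule and 3 of 7 TCA cycle genes. It was 2 of 8 carriers and porins, 2 of 9 antioxidant genes and 2 of 11 glycolysis genes. In the list of cytochrome c1 and reductants of ubiquinone it was 0 of 3. Among all such genes the share was 48.8%. None of the 16 regulators of mitochondrial gene expression had that many expected reads. Gapdh had 27850 reads, and Slc25a4 and Slc25a5, the carriers that exchange ADP for ATP, had 1817 and 2909.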

How the data were processed

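Trizol RNA was sequenced as 150-base read pairs, per the labels' protocols, with GRCm38 as the build, per the submitters' processing notes. Neither aligner nor counting tool is given in the sources here. Per the file headers, the OPC file the authors deposited holds 1 comparison: the mean signal of normalized counts, log2 fold changes, their standard errors, a score (the quotient) and p-values, used as deposited. The immune files hold TPM made by the authors. The deposited estimated counts, 79.8% to 85.62% of them whole, were rounded, with blanks as 0. 8 columns of per-sample values were not used. The OPC numerator is unnamed, and the design's own model could not be run there. Macrophage columns carry codes found in no label and were assigned to the group alone, and each pair of libraries differed beyond counting noise (chi-square per gene 1.28 to 2.44 over all genes, and over members 8.31 and 5.75 for the pairs with library 1 and 1.46 for libraries 2 and 3).

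edgeR 4.0.16 (TMM, filterByExpr, quasi-likelihood, Benjamini-Hochberg) compared the library labelled Th1 with the macrophage libraries, with calls needing 4-fold and an adjusted p under 0.05, after a test on simulated data. The simulated libraries shared the macrophage profile but for a few genes, so that test does not bear on the choice of scaling. The p-values of edgeR measure only the spread between macrophage libraries. DESeq2 1.42.0 gave size factors and a Wald test as alternatives, beside library totals, no count filter, no minimum fold and leaving out each macrophage library. Ratios for 1 to 3 reads carry exact Poisson-based intervals at 95%. Genes, transcript lengths (longest coding sequence) and copies (BLAST+ 2.17.0) come from GENCODE M21, promoters from a RefSeq table of GRCm38.p6. R 4.3.3, Python 3.11.15, pandas 2.3.3, numpy 2.4.6, scipy 1.17.1 and matplotlib 3.10.9 were used.

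Members and lists were chosen with earlier results of these data known. Named genes are, per complex, the 3 smallest p-values in OPCs, the 2 highest and 2 lowest macrophage levels, the 2 largest called folds each way for the library labelled Th1, complex II, Cycs and the paired isoforms. Others named were chosen after their values were seen. Counts include 1 gene that is not reported here by name and is not drawn in the figures.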

Additional observations from a re-analysis of the deposited data

How the results depend on the processing

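The OPC count of 0 members called stayed 0 when p-values were adjusted again over 15897 genes with a mean of at least 10 normalized counts, at an unadjusted p under 0.05, and after centring. In the comparison of the library labelled Th1, members called higher were 27 with TMM and 8 with library totals, the other counts staying within 1.5 times. Leaving out each macrophage library gave 27 higher and 41 lower each time. Against TMM, the sign turned with DESeq2 size factors and the DESeq2 Wald test for Cox4i1 (0.56), Cox6a1 (0.75) and Cox6b1 (0.70), and with library totals for Cox7a2l (-0.57), Cox7b (-1.04) and Cox8a (-0.56), all log2. With genes without a read held to their bound, an alternative chosen after seeing the data, 31 members in place of 35 and 3 complex II genes in place of 4 were lower under all 3 scalings.

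Without the 10 most abundant genes, the macrophage median TPM of complexes I to V became 301, 70.3, 566, 694 and 625, and the summed TPM of the library labelled Th1 18901, 1.86, 5531, 15780 and 20949. In CPM the macrophage medians were 169, 72.3, 231, 319 and 377, with complex V above complex IV. Members under 1 TPM left out, complex IV had a median of 585. Leaving out each macrophage library gave medians of 151 to 154, 35.2 to 36.1, 280 to 295, 350 to 352 and 315 to 317. No paired analysis was possible because the OPC table gives no values per library and there is only 1 library labelled Th1, while the codes of the macrophage columns stand in no label. For the same reason no OPC library could be left out. Depth limits what the library labelled Th1 shows: without a read, the bound stayed under 4-fold for Sdha (3.73), Ndufs1 (1.22) and Ndufaf2 (0.871), with 90.2, 29.5 and 21.1 expected reads.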
